A study of Homo sapiens with 10 samples.

Results

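The 8 RNAs described here are noncoding RNAs of the nucleus and of protein targeting: the 7SK RNA (RN7SK), the 3 genes of the 7SL RNA (RN7SL1, RN7SL2 and RN7SL3), the RNAs of RNase MRP (RMRP) and RNase P (RPPH1), and the long nuclear RNAs NEAT1 and MALAT1. They were chosen by symbol, as 8 of the 57993 symbols in the deposited tables, with their values in these libraries known. Their own values are therefore given as descriptions, without tests. Together the 8 symbols have 10 rows in each table, since MALAT1 has 3. By level, 5 of the 8 reached the minimum used for tests of genes, and RN7SL1, RMRP and RPPH1 did not.

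The libraries come from HCT116, a line of human colorectal carcinoma cells, and from a purchased derivative labelled KDM5A-/-. KDM5A demethylates lysine 4 of histone H3. Of the 10 libraries, 8 are of KDM5A-/- cells: 3 with empty vector, 3 with wild-type KDM5A on a plasmid and 2 with a mutant KDM5A, whose mutation the labels leave unnamed. The other 2 are of parental cells with empty vector. In all 10 libraries RNA was taken with Trizol from GFP-positive cells sorted 24 hours after transfection. The knockout line alone was kept in medium with G418 (300 ug/mL), so genotype, line and G418 cannot be told apart. No label says whether replicate libraries are separate cultures, so the p-values below rest on a spread between samples that may be technical only. The empty-vector knockout libraries are the control of 3 of the 4 comparisons, which therefore share them.

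The 7SK RNA forms a particle with the proteins LARP7, MEPCE and HEXIM that holds the elongation kinase P-TEFb (CDK9 with a cyclin T) inactive. The 7SL RNA is the scaffold of the signal recognition particle, which brings ribosomes that make secreted and membrane proteins to the endoplasmic reticulum. RMRP and RPPH1 are the catalytic RNAs of related ribonucleoproteins that process ribosomal RNA precursors and the leading ends of tRNA precursors. RN7SK, the 7SL genes, RMRP and RPPH1 are transcribed by RNA polymerase III. NEAT1 and MALAT1 are neighbouring RNA polymerase II genes on the long arm of chromosome 11. NEAT1 is the scaffold of paraspeckles, and MALAT1 gathers in nuclear speckles, which store splicing factors. Most of these RNAs have no long poly(A) tail, and their share of a library is known to follow how the RNA was selected and sized.

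The 7SL genes have many near-identical copies, and reads from one copy can match another over long stretches. Of these copies, 5 were compared as GENCODE 29 transcripts on GRCh38: RN7SL1 at chr14:49586580-49586878 (plus strand), RN7SL2 at chr14:49862550-49862849 (minus strand), RN7SL3 at chr14:49853616-49853914 (minus strand), and the copies RN7SL4P at chr3:15738515-15738809 (plus strand) and RN7SL5P at chr9:9442060-9442380 (plus strand). RN7SL2 was identical to RN7SL1 over 98.3% of the alignment and RN7SL3 over 97.7%. RN7SL4P and RN7SL5P were identical over 85.8% and 84.2%. Of the 200 stretches of 100 bases in RN7SL1, 106 (53%) also occur unchanged in RN7SL2, 24 (12%) in RN7SL3, 34 (17%) in RN7SL4P and 110 (55%) in RN7SL5P. Such stretches cannot be assigned to 1 gene by their sequence, so the split of 7SL signal between copies is uncertain throughout.

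Values below are scaled values: the deposited log2 values turned back to the linear scale, which is per length of RNA and sums to between 999975 and 1000008 per library, divided by 1 factor per library. The read depth behind them is unknown. In make-up, 3 libraries differed from the other 7: mutant libraries 1 and 2 and parental library 2. The protein-coding share of the library total was 89.7% to 90.5% in these 3, against 92.6% to 92.9% in the others, and ribosomal protein genes 15.0% to 15.6% against 12.5% to 13.8%. The protein-coding share includes plasmid KDM5A, which was 1.38% to 1.61% of the total with wild-type and 1.97% to 1.99% with mutant KDM5A. Each had 32067 to 33182 loci at 0, against 30129 to 31556. KDM5A, the targeted gene, was 12.2 to 17.7 without and 13452 to 23346 with a KDM5A plasmid, so its level checks the plasmid labels and not the knockout. It was 13452, 16237 and 15598 with wild-type KDM5A and 23346 and 22816 with mutant KDM5A. Between mutant and wild-type libraries, the mutation and the level of KDM5A therefore cannot be told apart. Of 8 epithelial markers, 7 were at 1 or more in every library (VIL1 was below 1), with sums of 4392 to 6116. Of 15 markers of leukocytes, endothelium, fibroblasts, muscle and neurons, 5 were at 1 or more, and all 15 together summed to 30.1 to 54.3. The leukocyte marker PTPRC and the endothelial marker CDH5 had group means below 0.1 with empty vector and with wild-type KDM5A in the knockout cells. These 2 are examples of low markers, and 5 of the 15 go the other way, so no cell type is called absent.

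The rows that carry the member symbols do not hold all of the signal at 4 of the 8 genes. At RN7SL1, RN7SL2, RN7SL3, RMRP and RPPH1 the tables also list a row named for the RNA class (Metazoa_SRP, RNase_MRP or RNaseP_nuc) at nearly the same position. The Metazoa_SRP rows of the 7SL genes have the coordinates given above for the GENCODE transcripts. At RN7SL1 the row with the gene symbol was 0.0607 to 0.404 and the class row 287 to 5255. The class row held 99.978% to 99.997% of the sum of both there, and 95.8% to 99.4% of it at RN7SL2. At RN7SL3 the split was the other way: the gene row was 9.08 to 275 and the class row at most 0.136. At RMRP (chr9:35657751-35658018) the gene row did not exceed 0.0485, and at RPPH1 (chr14:20343048-20343685) it was listed at 0 in 7 libraries. A low value of RN7SL1, RMRP or RPPH1 in these tables is therefore a value of 1 of 2 rows of the same place. The sums of both rows, a choice made after the rows were seen, are used below for these 5 genes.

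**Figure D1:**
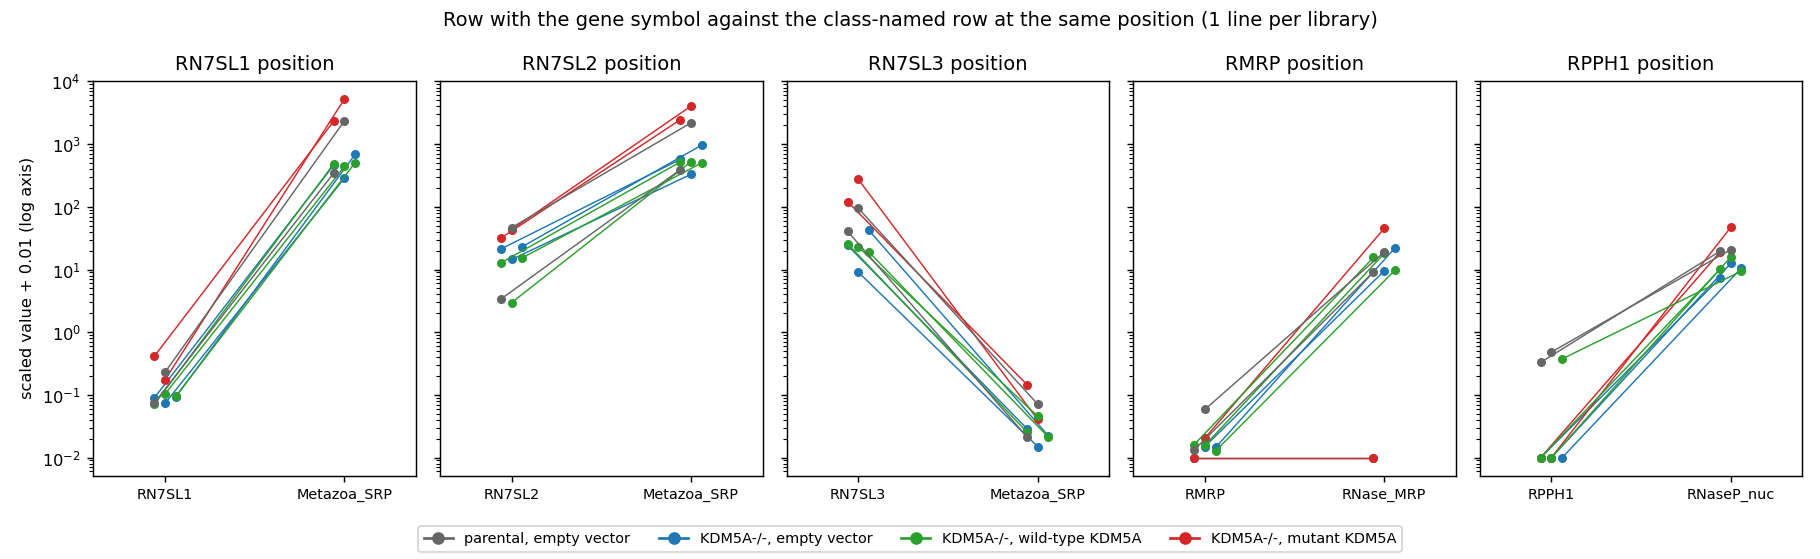
Scaled value plus 0.01 (log axis) of the row with the gene symbol (left) and of the class-named row at the same position (right), 1 line per library, coloured by group. At RN7SL1, RN7SL2 and RPPH1 the class row was larger in all 10 libraries, at RN7SL3 in none, and at RMRP in the 8 libraries where either row was above 0.

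RN7SK (chr6:52995620-52995950) was high in the mutant libraries, and by very different amounts. It was 23.3 and 25.1 in parental cells and 23.7, 22.1 and 15.5 in knockout cells with empty vector. With wild-type KDM5A it was 37.5, 30.7 and 31.8, and with mutant KDM5A 58.4 and 593. The 5 libraries with a KDM5A plasmid (30.7 to 593) lay above the 5 without one (15.5 to 25.1), with no overlap. How many of all genes separate in such a way was not counted, so a lack of overlap is description only, here and below. Mutant library 2 was 10.2 times mutant library 1, while within each other group the highest library was at most 1.53 times the lowest. The log2 difference, on the scale of the scaled value plus 1, was 0.70 (SE 0.66) for wild-type KDM5A against empty vector. For mutant KDM5A it was 3.15 (SE 0.73) against empty vector, 4.81 without mutant library 1 and 1.49 without mutant library 2. Against wild-type KDM5A the mutant difference was 2.46 (SE 0.73). Every SE comes from a fit over all 4 groups, here and below. The SE of 0.66 thus also carries the spread of the mutant libraries. The order of the group means was empty vector, parental, wild-type and mutant, and the first 2 of these overlapped. Parental library 2, which shares the low protein-coding share of the mutant libraries, was at 25.1 and did not stand apart in RN7SK. In bulk RNA, fewer cells carrying an RNA and less of it per cell cannot be told apart, here and below.

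Copies of 7SK gave little signal. Of 285 rows named as RN7SK copies, 252 were at 0 in all libraries and 2 had a mean of 1 or more. Their summed level was 3.36 to 17.8. A further 13 rows carry the class name 7SK, and 9 of these were at 0 in all libraries.

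**Figure D2:**
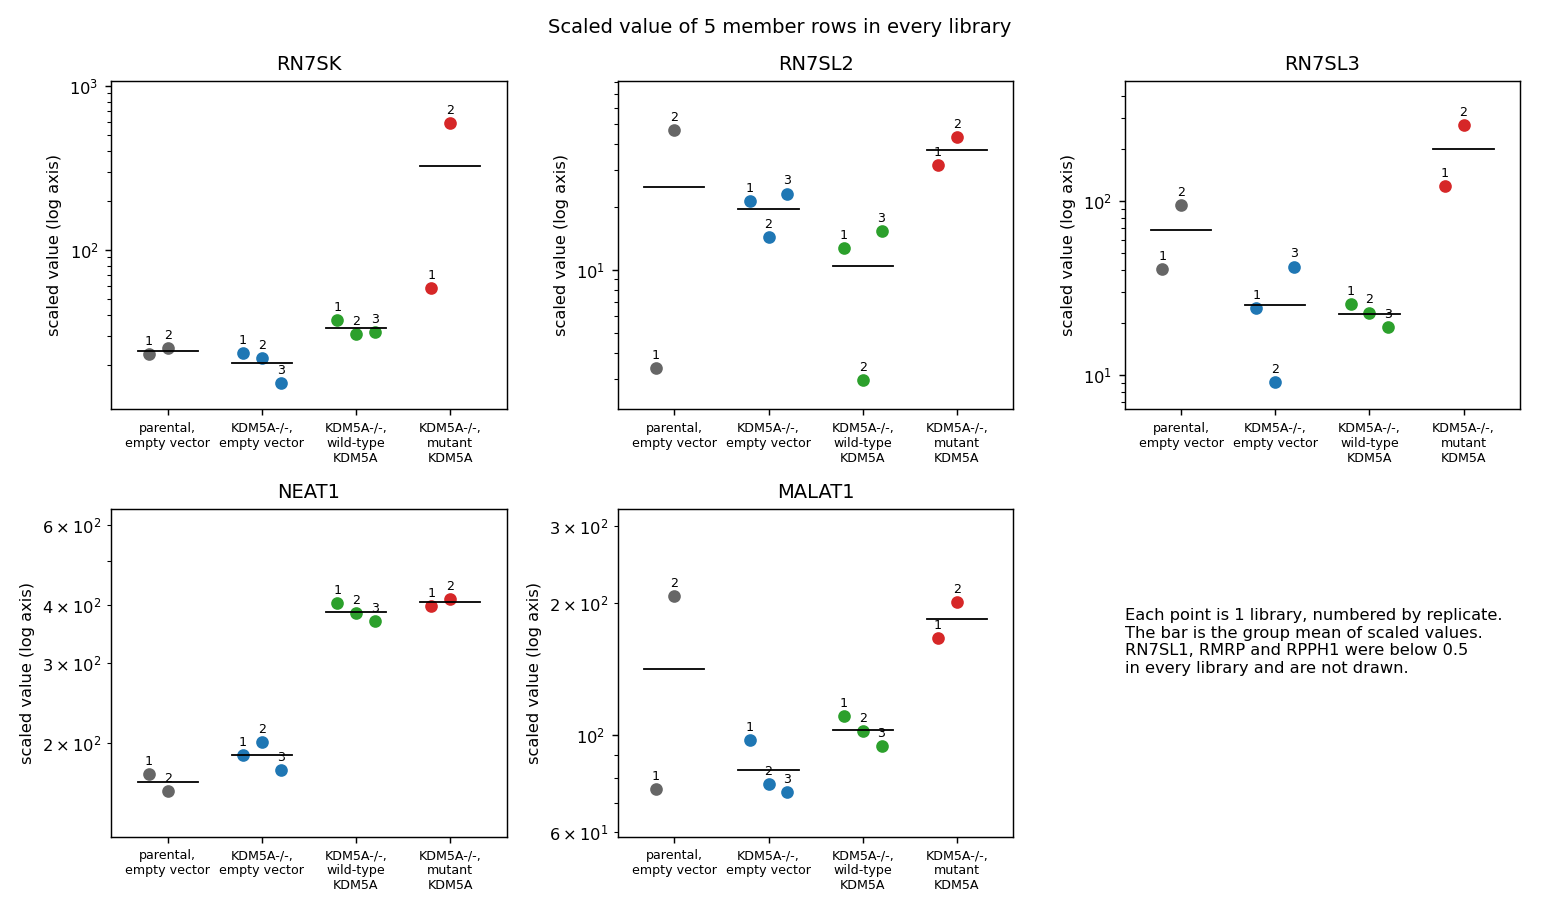
Scaled values (log axis) of the 5 members with a value of 1 or more, for each library as a point with its replicate number, and the group mean as a bar. RN7SK and NEAT1 were higher in the libraries with a KDM5A plasmid than in those without, while RN7SL3 and MALAT1 were highest in both mutant libraries and parental library 2.

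Among genes for the proteins of the 7SK particle, none passed higher in any of the 4 comparisons. The lists of protein genes used here hold none of the 8 RNAs and were tested with limma, with p-values adjusted over the 17779 genes tested. With wild-type KDM5A 1 of 7 fell: HEXIM2, an inhibitor of P-TEFb that binds 7SK, went from 14.1 ± 0.534 (SD, n = 3) to 7.94 ± 0.244 (SD, n = 3), a log2 difference of -0.75 (SE 0.13, limma adjusted p = 0.0161). With mutant KDM5A 1 of 7 fell: its paralog HEXIM1 went from 69.4 ± 1.33 (SD, n = 3) to 56.5 ± 5.95 (SD, n = 2), a log2 difference of -0.29 (SE 0.08, limma adjusted p = 0.0356). The HEXIM1 difference was -0.19 without mutant library 1 and -0.40 without mutant library 2. With a replicate block neither HEXIM2 (limma adjusted p = 0.0641) nor HEXIM1 (limma adjusted p = 0.0844) passed. The median log2 difference of the 7 genes was -0.24 with wild-type and -0.23 with mutant KDM5A, beside 0.00 and -0.01 for all genes. LARP7, which binds and stabilises 7SK, had log2 differences of 0.03 and 0.29 that did not pass. With the values as deposited, where the median of all genes shifts down, 6 of the 7 passed lower with mutant KDM5A, and with quantile normalization 1 did. Of 15 elongation factor genes none passed with wild-type KDM5A, and 1 fell with mutant KDM5A (6 as deposited, 1 with quantile normalization). That gene, AFF4, a scaffold of the super elongation complex, went from 32.7 ± 2.06 (SD, n = 3) to 21.0 ± 0.655 (SD, n = 2), a log2 difference of -0.61 (SE 0.11, limma adjusted p = 0.00881). In parental against knockout cells no gene of the particle passed. There MLLT3 (log2 difference 0.999) and EAF2 (0.66), partners of the super elongation complex, were higher, and SUPT5H (-0.25), a subunit of the pausing and elongation factor DSIF, was lower.

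The 7SL genes were highest in both mutant libraries and in parental library 2. At the RN7SL1 position the sum of both rows was 344 and 2351 in parental cells, 462, 287 and 688 with empty vector, 483, 441 and 508 with wild-type KDM5A, and 2323 and 5255 with mutant KDM5A. At the RN7SL2 position it was 394 and 2233 in parental cells, 592, 345 and 988 with empty vector, 531, 525 and 518 with wild-type KDM5A, and 2483 and 4090 with mutant KDM5A. RN7SL3 was 40.8 and 94.9 in parental cells, 24.3, 9.08 and 42.0 with empty vector, 25.7, 22.9 and 18.9 with wild-type KDM5A, and 121 and 275 with mutant KDM5A. At all 3 positions both mutant libraries and parental library 2 lay above the other 7 libraries with no overlap. These libraries were set apart by their make-up in these same data, and the share of all genes with this split was not counted. The 3 positions share sequence, so they are not independent of each other.

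At the RN7SL1 position the empty-vector mean was 479 ± 201 (SD, n = 3) and the wild-type mean 477 ± 33.4 (SD, n = 3), while the mutant mean was 3789 ± 2074 (SD, n = 2). The ratio of the mutant mean to the empty-vector mean was 7.91 at RN7SL1, 5.12 at RN7SL2 and 7.88 at RN7SL3. The same ratio for wild-type KDM5A was 0.996, 0.818 and 0.896. The wild-type and empty-vector libraries overlapped at all 3 positions. Parental library 2 was 6.83 times parental library 1 at RN7SL1 and 5.67 times at RN7SL2, so the parental mean of 1348 ± 1419 (SD, n = 2) at RN7SL1 describes neither library. Parental library 1, at 344, lay within the empty-vector range. The high 7SL level was shared by libraries of different genotype and plasmid that also have a low protein-coding share. The 7SL rows lie outside the protein-coding share, so the level and the share are not independent. The part of library make-up in the 7SL level was not tested. The row of RN7SL1 lies within the span of the ribosomal protein gene RPS29, whose own row was 1328 to 2596.

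The gene row of RN7SL2 alone was much lower and less even. It was 3.38 and 46.8 in parental cells, 21.3, 14.4 and 23.2 with empty vector, 12.8, 2.96 and 15.4 with wild-type KDM5A, and 31.8 and 43.4 with mutant KDM5A. Its log2 difference between parental and knockout cells was -0.49 (SE 0.90), 1.24 without parental library 1 and -2.21 without parental library 2. With the class row added the difference was 0.68, so its direction depends on which row is read and on which parental library is used.

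Over the whole family the pattern of the libraries was the same. The tables hold 858 rows named as 7SL genes or copies, of which 708 were at 0 in all libraries and 27 had a mean of 1 or more. Their sum was 843 and 5642 in parental cells, 1177, 764 and 1876 with empty vector, 1217, 1129 and 1161 with wild-type KDM5A, and 6434 and 10595 with mutant KDM5A. The class rows at RN7SL1 and RN7SL2 made up 74.2% to 88.1% of it. As a share of the library total the family was 0.543% to 0.923% in both mutant libraries and parental library 2, and 0.0847% to 0.203% in the other 7.

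Among the copies, RN7SL4P did not follow the functional genes in order. It was 14.6 and 809 in parental cells, 33.0, 33.0 and 86.3 with empty vector, 73.3, 44.5 and 51.3 with wild-type KDM5A, and 1240 and 684 with mutant KDM5A. Mutant library 1 thus had the higher RN7SL4P, while mutant library 2 had the higher RN7SL1, RN7SL2 and RN7SL3. RN7SL5P was 8.30 and 74.6 in parental cells, 13.1, 14.1 and 15.2 with empty vector, 20.8, 18.1 and 11.4 with wild-type KDM5A, and 111 and 138 with mutant KDM5A. Its 3 highest libraries were again both mutant libraries and parental library 2.

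**Figure D3:**
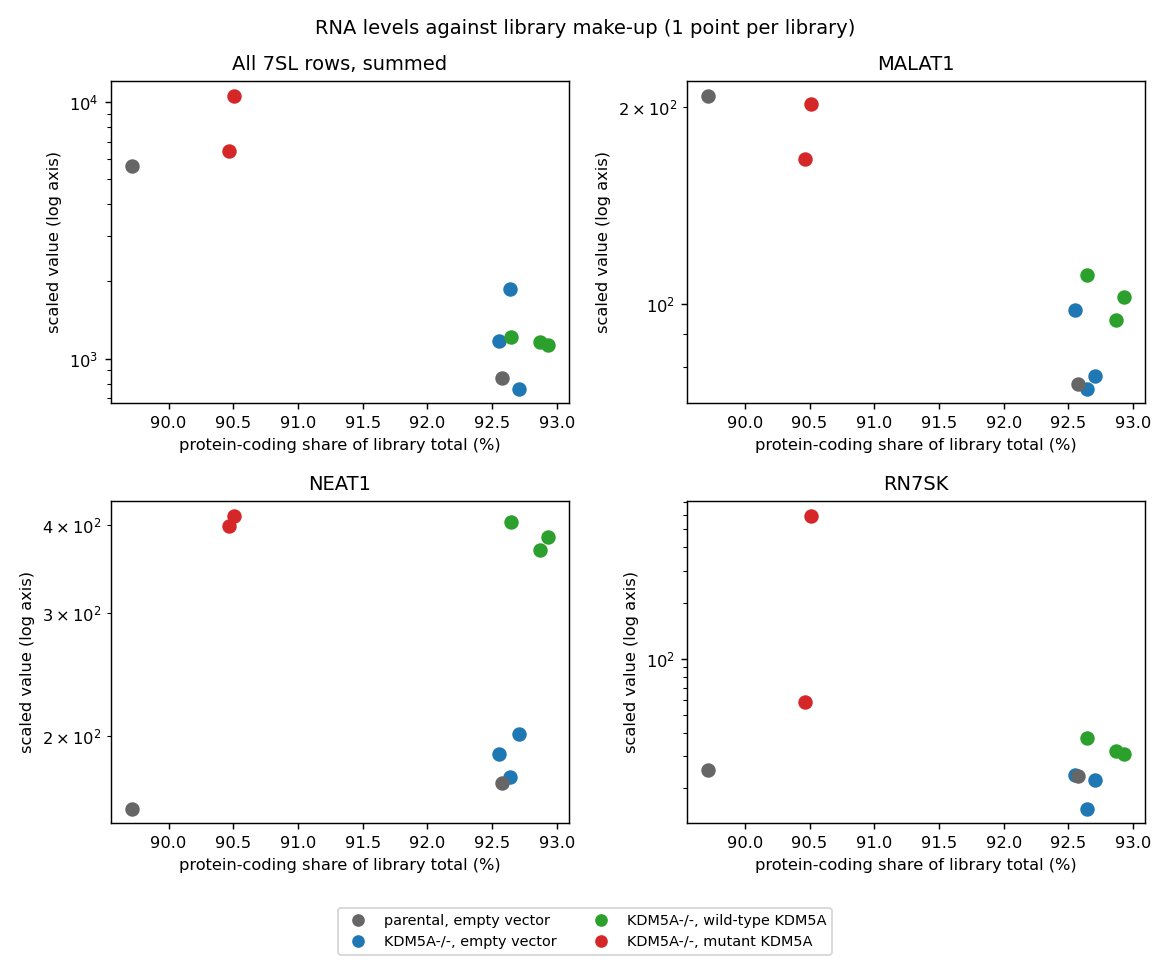
Scaled value (log axis) of all 7SL rows summed, MALAT1, NEAT1 and RN7SK against the protein-coding share of the library total (percent), 1 point per library. The 3 libraries at 89.7% to 90.5% have the highest 7SL sums and MALAT1 values, whereas NEAT1 separates by plasmid and RN7SK is high in 2 of the 3. The share includes plasmid KDM5A and leaves out the RNAs drawn, so the axes are not independent.

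Genes for the proteins of the signal recognition particle and its receptor passed higher on this scaling alone. Of 8 genes, 2 passed higher with wild-type KDM5A, 3 with mutant KDM5A and none in parental cells, and none passed lower in these comparisons. As deposited none passed with wild-type KDM5A and 2 passed lower with mutant KDM5A, and with quantile normalization none passed in any comparison. With wild-type KDM5A the receptor subunit SRPR (SRPRA) had a log2 difference of 0.24 (SE 0.05, limma adjusted p = 0.0456) and the large subunit SRP72 of 0.25 (SE 0.06, limma adjusted p = 0.04999). With mutant KDM5A SRP14, which pairs with SRP9 on the Alu end of 7SL, went from 279 ± 19.8 (SD, n = 3) to 380 ± 10.6 (SD, n = 2), a log2 difference of 0.44 (SE 0.07, limma adjusted p = 0.00587). It was 0.10 as deposited and 0.12 with quantile normalization, and passed with neither. SRP54, which binds the signal peptide, and SRPR had log2 differences of 0.30 and 0.23 there, which turned to -0.03 and -0.10 on the values as deposited. The median over the 8 genes was 0.21 with wild-type and 0.20 with mutant KDM5A. As deposited the mutant median was -0.14, beside -0.30 for all genes.

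RMRP and RPPH1 were low, and RMRP was not listed above 0 in every library. The sum of both RMRP rows was 9.12 and 18.98 in parental cells, 0, 9.47 and 22.1 with empty vector, 15.5, 18.0 and 9.75 with wild-type KDM5A, and 0 and 45.2 with mutant KDM5A. The groups overlapped in every comparison, and each of 2 groups held 1 library listed at 0. Such a 0 can be a failed estimate, so no fold is given. The sum of both RPPH1 rows was 19.9 and 21.3 in parental cells, 7.23, 12.5 and 10.6 with empty vector, 10.003, 15.8 and 9.80 with wild-type KDM5A, and 18.9 and 47.2 with mutant KDM5A. The 4 mutant and parental libraries lay above the 6 others, and the lowest of the 4 (18.9) was close to the highest of the 6 (15.8). The ratio of means to empty vector was 3.27 for mutant KDM5A, 2.03 for parental cells and 1.17 for wild-type KDM5A, and the mutant mean was 33.1 ± 20.0 (SD, n = 2). The longer row of RPPH1 overlaps that of PARP2, its neighbour, by 104 bases, and PARP2 was 30.6 to 49.1.

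Among protein genes of RNase P and RNase MRP, calls with wild-type KDM5A were lower on each scaling, and the direction of those with mutant KDM5A depended on the scaling. With wild-type KDM5A 2 of 11 fell, RPP14 (log2 difference -0.46, SE 0.10, limma adjusted p = 0.0323) and RPP25L (-0.26, SE 0.05, limma adjusted p = 0.0264), and both passed as well as deposited and with quantile normalization. With mutant KDM5A 3 of 11 passed higher and none lower on this scaling. As deposited 1 passed higher and 6 lower, and with quantile normalization 1 higher and none lower. RPP40 went from 9.11 ± 1.37 (SD, n = 3) to 18.8 ± 4.72 (SD, n = 2), a log2 difference of 0.96 (SE 0.20, limma adjusted p = 0.0141), and passed as well as deposited (0.64) and with quantile normalization (0.99). RPP21 had a log2 difference of 0.44 (SE 0.09, limma adjusted p = 0.0157), which was 0.10 as deposited and 0.31 with quantile normalization and passed with neither. POP4 had one of 0.21 (SE 0.06, limma adjusted p = 0.0440), which was -0.13 as deposited and 0.09 with quantile normalization. No gene of this list passed in parental against knockout cells.

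NEAT1 (chr11:65422774-65445540) separated the libraries by plasmid and was even within groups. It was 172 and 158 in parental cells and 189, 201 and 175 in knockout cells with empty vector. With wild-type KDM5A it was 404, 385 and 369, and with mutant KDM5A 400 and 413. The 5 libraries with a KDM5A plasmid (369 to 413) lay above the 5 without one (158 to 201). Within every group the highest library was at most 1.15 times the lowest.

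Mean NEAT1 was 165 ± 10.02 (SD, n = 2) in parental and 188 ± 13.1 (SD, n = 3) in empty-vector knockout libraries. It was 386 ± 17.5 (SD, n = 3) in wild-type and 406 ± 9.39 (SD, n = 2) in mutant libraries. Its log2 difference to empty vector was 1.03 (SE 0.06) with wild-type and 1.11 (SE 0.07) with mutant KDM5A. With the values as deposited these were 0.92 and 0.77, and with quantile normalization 0.94 and 0.81. Leaving out any 1 library gave 0.98 to 1.08 with wild-type and 1.06 to 1.16 with mutant KDM5A. The mutant and wild-type libraries overlapped, with a log2 difference of 0.07 (SE 0.07) that turned to -0.15 as deposited and -0.13 with quantile normalization. Parental cells were lower than knockout cells with empty vector by a log2 difference of -0.19 (SE 0.07), without overlap. Of all genes tested, 50.3% had a larger absolute difference there, so its size was ordinary. In order of level the groups were parental, empty vector, wild-type and mutant, and the last 2 did not differ beyond their spread. Parental library 2, which shares the low protein-coding share of the mutant libraries, had the lowest NEAT1 of all.

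The genes whose pattern over the 10 libraries was nearest to that of NEAT1, by the root mean square difference of centred log2 values, were IGHE (0.08), IFIT1 (0.10), IFIT3 (0.14), DNAJB1 (0.14) and MAFF (0.15). IFIT1 and IFIT3 are interferon-induced genes, DNAJB1 is an HSP40 chaperone and MAFF a small basic leucine zipper factor. IGHE had a mean of only 2.02. The row NEAT1 holds the rows MIR612, NEAT1_1, NEAT1_2 and NEAT1_3 within it, and these short rows were at 0 in all libraries. The short and the long form of NEAT1 are not separated in the tables.

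Genes around NEAT1 and MALAT1 on chromosome 11 had smaller differences. Of 11 tested neighbours, none passed with wild-type KDM5A, and their log2 differences ran from -0.21 (POLA2) to 0.11 (SLC25A45). With mutant KDM5A 1 rose, SSSCA1 (0.27, limma adjusted p = 0.0491), and 2 fell, LTBP3 (-0.42, limma adjusted p = 0.0198) and EHBP1L1 (-0.34, limma adjusted p = 0.0189). As deposited none of the 11 passed higher with mutant KDM5A and 5 passed lower, and with quantile normalization none passed higher and 2 lower. FRMD8, which lies between SLC25A45 and NEAT1, had log2 differences of 0.10 with wild-type and -0.29 with mutant KDM5A and did not pass.

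Protein genes of paraspeckles had small differences, whose direction with mutant KDM5A depended on the scaling. Of 19 genes, 1 rose with wild-type KDM5A: EWSR1, an RNA-binding protein, went from 311 ± 3.70 (SD, n = 3) to 358 ± 5.42 (SD, n = 3), a log2 difference of 0.20 (SE 0.04, limma adjusted p = 0.0246). It passed neither as deposited (0.09) nor with quantile normalization (0.07). With mutant KDM5A 4 passed higher and none lower on this scaling, against 0 higher and 11 lower as deposited and 0 higher and 6 lower with quantile normalization. The 4 included TARDBP (0.37, limma adjusted p = 0.00714), HNRNPA1 (0.35, limma adjusted p = 0.0140) and EWSR1 (0.28, limma adjusted p = 0.00612). TARDBP kept a positive difference both as deposited (0.03) and with quantile normalization (0.10), and with neither did it pass. EWSR1 turned negative with both, and HNRNPA1 was 0.01 as deposited and passed lower with quantile normalization (-0.24, limma adjusted p = 0.0315). The paraspeckle proteins NONO, SFPQ and PSPC1, which bind NEAT1, passed in none of the 4 comparisons. In parental against knockout cells 1 of 19, RBM14, fell by 0.33 (SE 0.08, limma adjusted p = 0.0305).

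MALAT1 (chr11:65497762-65506516 for its main row) was highest in both mutant libraries and in parental library 2. It was 75.3 and 208 in parental cells, 97.7, 77.5 and 74.1 with empty vector, 111, 102 and 94.6 with wild-type KDM5A, and 166 and 202 with mutant KDM5A. Both mutant libraries and parental library 2 (166 to 208) lay above the other 7 (74.1 to 111). The highest value of all was that of parental library 2, which has no KDM5A plasmid. A second row of MALAT1 held 1.51 in empty-vector library 3 and 0.0304 in wild-type library 3, and the third was at 0 throughout.

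Mean MALAT1 was 142 ± 94.0 (SD, n = 2) in parental and 83.1 ± 12.8 (SD, n = 3) in empty-vector knockout libraries. It was 103 ± 8.12 (SD, n = 3) in wild-type and 184 ± 25.1 (SD, n = 2) in mutant libraries. Wild-type and empty-vector libraries overlapped, with a log2 difference of 0.31 (SE 0.30). That SE also carries the spread of the 2 parental libraries. Mutant KDM5A differed from empty vector by 1.14 (SE 0.34) and from wild-type by 0.83 (SE 0.34), with no overlap in either case. Of all genes tested, 2.39% and 4.11% had a larger absolute difference in these comparisons. The parental difference was 0.60 (SE 0.34), 1.33 without parental library 1 and -0.13 without parental library 2, so that 1 library set its direction. The genes nearest to MALAT1 in pattern were SLIRP (0.14), COMMD6 (0.16), SMN2 (0.17), RPL26P30 (0.18) and BOLA2 (0.19). SLIRP binds mitochondrial RNA, SMN2 is a near-identical copy of the spliceosome assembly gene SMN1, and RPL26P30 is a ribosomal protein pseudogene. SMN2 and BOLA2 share reads with near-identical copies, so their own values are uncertain.

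Some nuclear speckle genes passed lower in parental cells on each scaling, and the direction of calls with mutant KDM5A depended on the scaling. Of 14 genes none passed with wild-type KDM5A. With mutant KDM5A 5 passed higher and none lower on this scaling, against 1 higher and 8 lower as deposited and 1 higher and 3 lower with quantile normalization. On this scaling they were led by PNN (0.57, limma adjusted p = 0.0105) and RNPS1 (0.45, limma adjusted p = 0.00919). PNN, a splicing-linked protein also found at cell junctions, went from 116 ± 7.64 (SD, n = 3) to 172 ± 18.0 (SD, n = 2) and passed under all 3 scalings. RNPS1, a splicing regulator that binds spliced mRNA, was 0.11 as deposited and 0.14 with quantile normalization and passed with neither. The splicing factors SRSF1 (0.27, limma adjusted p = 0.00622) and SRSF2 (0.28, limma adjusted p = 0.0251) passed on this scaling and turned negative both as deposited and with quantile normalization. In parental against knockout cells 5 of 14 fell and none rose. SRSF1 went from 332 ± 4.67 (SD, n = 3) to 271 ± 2.26 (SD, n = 2), a log2 difference of -0.29 (SE 0.04, limma adjusted p = 0.00440), and SON, the large scaffold protein of speckles, from 147 ± 5.05 (SD, n = 3) to 122 ± 5.00 (SD, n = 2) (-0.26, SE 0.05, limma adjusted p = 0.0188). SRSF2, SRSF3 and SRSF7 fell by 0.32, 0.34 and 0.25. With a replicate block SRSF1 still passed in this comparison, and SON, SRSF2 and SRSF7 did not. With only the libraries compared, none of SRSF1, SON, SRSF2 and SRSF7 passed.

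The RNA polymerase III machinery transcribes 6 of the 8 members, and on this scaling its genes changed in both directions. Of 31 genes, 1 rose and 3 fell with wild-type KDM5A, 6 rose and 6 fell with mutant KDM5A, and 1 rose and 5 fell in parental against knockout cells. As deposited none passed higher in these comparisons, and 4, 15 and 6 passed lower. With quantile normalization 1 passed higher and 2 lower with wild-type KDM5A, 3 and 5 with mutant KDM5A, and 1 and 5 in parental cells. BDP1, a subunit of the initiation factor TFIIIB, went from 17.6 ± 0.465 (SD, n = 3) with empty vector to 13.7 ± 0.269 (SD, n = 3) with wild-type KDM5A (log2 difference -0.34, SE 0.06, limma adjusted p = 0.0219). It was 11.7 ± 0.0123 (SD, n = 2) with mutant KDM5A (-0.55, SE 0.07, limma adjusted p = 0.00336) and 10.6 ± 0.115 (SD, n = 2) in parental cells (-0.69, SE 0.07, limma adjusted p = 0.00116). GTF3C5, a subunit of TFIIIC, likewise fell in all 3, by 0.39, 0.40 and 0.46. The empty-vector libraries are the shared control of these 3 comparisons. The polymerase subunit POLR3D rose by 0.32 with wild-type and 0.51 with mutant KDM5A, but as deposited it was 0.21 and 0.17 and did not pass. The largest subunit POLR3A fell by 0.32 and 0.41. With mutant KDM5A the La protein gene SSB (0.46) and the TFIIIA gene GTF3A (0.48) were also higher. The factor ZNF143, which acts at 7SK-type promoters, was lower in parental cells (-0.47, limma adjusted p = 0.0231).

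**Figure D4:**
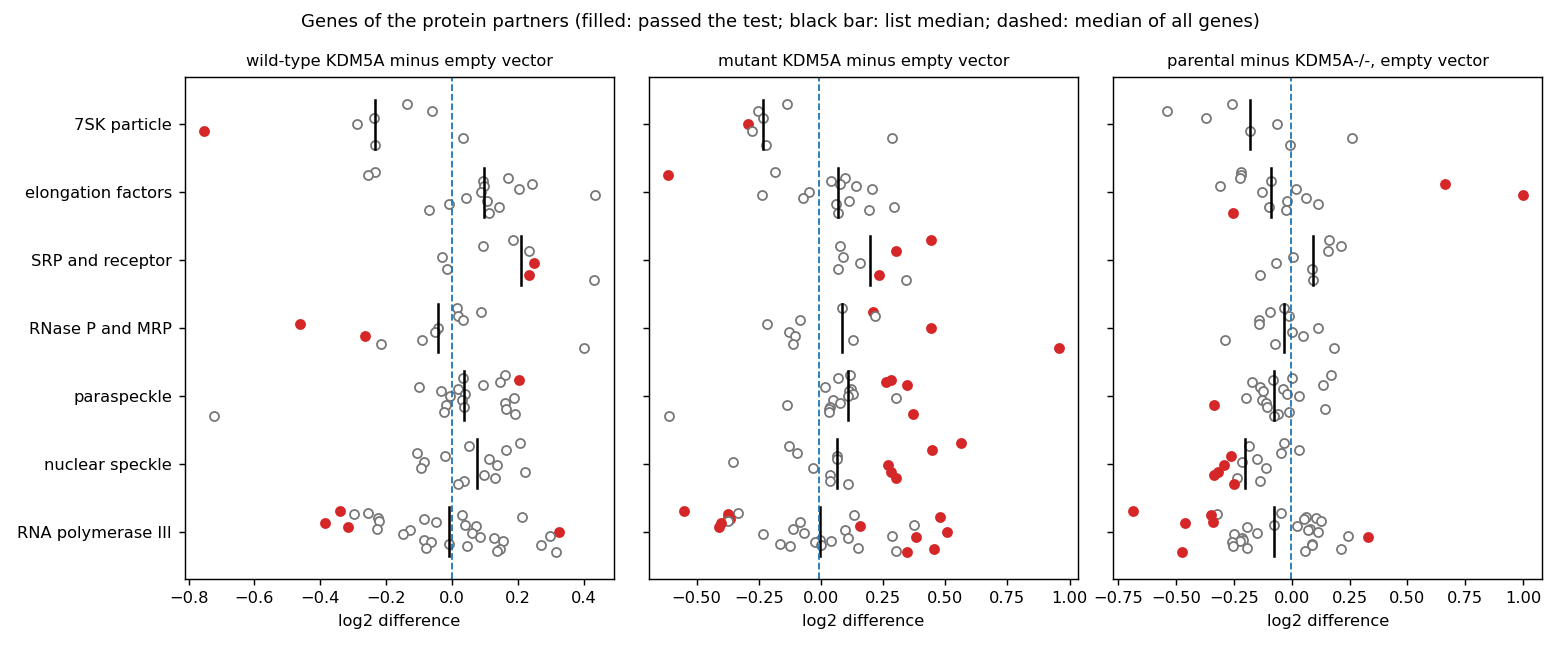
Log2 difference of each tested gene of the 7 protein lists in 3 comparisons with the empty-vector knockout libraries. Filled points passed the limma test, black bars are list medians and the dashed line is the median of all genes; BDP1 and GTF3C5 are among the filled points to the left in all 3 panels.

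Over all 7 lists, 10 of 105 protein genes passed with wild-type KDM5A (4 higher, 6 lower), 29 with mutant KDM5A (21 higher, 8 lower) and 15 in parental against knockout cells (3 higher, 12 lower). As shares these were 9.52%, 27.6% and 14.3%, beside 4.54% of all genes with wild-type KDM5A (2.52% higher, 2.02% lower), 16.5% with mutant KDM5A (9.48% higher, 7.05% lower) and 8.94% in parental cells (4.09% higher, 4.84% lower). In mutant against wild-type KDM5A 0 of 105 passed in limma, beside 0.0562% of all genes (0.0337% higher, 0.0225% lower). There 24 of 105 (22.9%) had an unadjusted p under 0.05, near the 20.2% of all genes (3583) that did. Without parental library 1, or without parental library 2, 8 of 105 (7.62%) passed in that comparison, beside 5.46% of all genes (970). With the values as deposited, which shift the median of all genes by -0.10, -0.30, -0.19 and -0.07 in the 4 comparisons, the splits were 0 higher and 7 lower, 2 and 54, 0 and 9, and 2 and 14. With quantile normalization they were 1 and 5, 5 and 16, 0 and 0, and 3 and 12. The wild-type count was 0 to 2 when any 1 of the 6 libraries compared was left out, and 20 without both mutant libraries and parental library 2. The mutant count was 19 without empty-vector library 1, 17 without empty-vector library 3 and 15 without mutant library 1. Leaving out empty-vector library 1, 2 or 3 gave parental counts of 7, 6 and 4, and leaving out parental library 2 gave 3.

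Whether a short structural RNA had any signal in these tables went with its length. Among rows typed as short structural RNA, 0 of 3515 of up to 150 bases were above 0 in any library. Of those over 150 and up to 200 bases 20 of 304 were (6.58%), and of those up to 250 bases 9 of 151 (5.96%). Of those over 250 and up to 300 bases 140 of 789 were (17.7%), of those up to 350 bases 53 of 302 (17.5%) and of those over 350 bases 23 of 40 (57.5%). The gene rows of RN7SK, the 7SL genes and RPPH1 have 297 to 638 bases and so fall in the longer classes. The gene row of RMRP, of 268 bases, is typed as a long noncoding RNA and is in none of them. Which step of library making or of the authors' processing sets this limit on length was not tested. The classes were not split by family. Over all rows, 150 of 858 named as 7SL genes or copies and 33 of 285 named as 7SK copies were above 0 in any library. RN7SL4P and RN7SL5P have rows of 295 and 321 bases. Over 250 and up to 350 bases, length therefore cannot be told apart from being a copy of these RNAs.

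**Figure D5:**
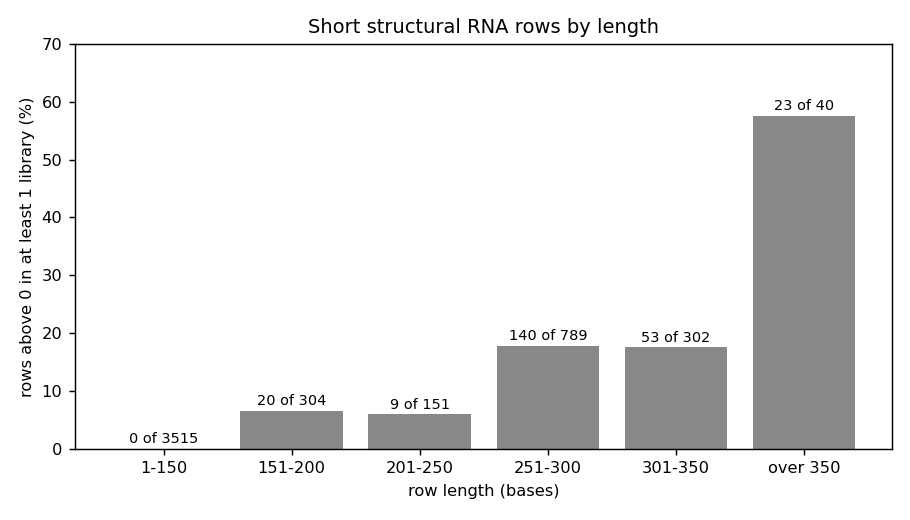
Share of short structural RNA rows above 0 in at least 1 library (percent, bars from 0) by row length in bases, with the counts above each bar. No row of up to 150 bases was above 0, and 57.5% of those over 350 bases were.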

How the data were processed

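Each library has 1 table of 60141 loci with a symbol, a position and a deposited log2 value that the authors computed from FPKM, per the file headers. The submitters' processing notes name the build GRCh38 and, without role or order, Cufflinks 2.2.1, STAR 2.7.1a, GATK 4.1.2 and Picard. The annotation release, strand setting, ribosomal RNA removal and read counts are not given in the sources used here, so the precision that depth gives is unknown. Which of 2 Illumina sequencer models read each library is not stated.

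The log2 values were turned back to linear values (2 to their power, minus 1), summed per symbol and divided by a median-ratio factor over 13651 genes at 1 or more throughout. Tests cover the 17779 genes that reached a scaled value of 1 in 2 or more libraries. limma 3.58.1 in R 4.3.3 was fitted on log2(scaled value + 1) over all 10 libraries and 4 groups, with a trend, two-sided, with Benjamini-Hochberg adjustment over all genes of a comparison at 0.05. It has 6 residual and 2.99 prior degrees of freedom. It was checked on simulated data with independent noise, which held no difference in library make-up and so does not cover that feature of these libraries. Python 3.11.15, numpy 2.4.6, pandas 2.3.3, Biopython 1.88 and matplotlib 3.10.9 did the rest. File starts are 0-based, since 97.3% of 32020 loci start 1 base before the GENCODE 29 gene of the same symbol and end, and 1 was added.

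Members and lists were chosen with earlier results of these data known. All 8 members are reported. Named protein genes are up to 4 of smallest p per list and comparison among those that passed, except that 1 gene and the 7SL sequences are not reported here. SRSF3, SSB, GTF3A, LARP7, NONO, SFPQ, PSPC1, the chromosome 11 neighbours and the noncoding RNAs and keratins of the closing section were named after their values were seen. Genes of like pattern are the 5 nearest to a member whose SD over libraries is at least 0.5. Alternatives were quantile normalization, the deposited values without a factor, a pseudocount of 0.1, no filter, a replicate block, only the libraries compared, the 3 libraries that stood apart left out, each library left out and, chosen after seeing the data, the sum with the class-named row.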

Additional observations from a re-analysis of the deposited data

How the results depend on the processing

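The count of protein genes that passed was 10 with wild-type KDM5A against empty vector, 29 with mutant KDM5A, 0 in mutant against wild-type and 15 in parental against knockout cells. It became 56 and 9 in the mutant comparisons with the values as deposited, 6 with wild-type KDM5A under quantile normalization, and 8 in parental cells with no filter. With only the libraries compared it became 20, 19 and 3 for wild-type, mutant and parental, and without both mutant libraries and parental library 2 it became 20 for wild-type and 8 for parental. Leaving out 1 library gave 0 to 14, 15 to 32, 0 to 8 and 3 to 19 in the 4 comparisons, where a group left with 1 library is assumed to vary like the others. Deviations of same-numbered libraries from their group means correlated at -0.09 to 0.05. In groups of 2 the deviations are equal and opposite by construction, so this cannot decide whether replicate numbers pair the libraries. With a replicate block the counts were 1, 15, 0 and 5.

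As deposited, these differences with mutant KDM5A turned negative: SRPR -0.104, SRP54 -0.0348, POP4 -0.127, EWSR1 -0.0565, SRSF1 -0.0702 and SRSF2 -0.0582. With quantile normalization EWSR1 became -0.0464, HNRNPA1 -0.245, SRSF1 -0.0669 and SRSF2 -0.125. Of the 41 named protein genes and comparisons, leaving out 1 library kept 282 calls and lost 128. The parental difference of MALAT1 was -0.130 without parental library 2, alone or with both mutant libraries left out, and ranged up to 1.33 when other single libraries were left out. The cause of these changes was not tested. Mutant comparisons without the mutant libraries could not be fitted, and read depth, which limits what short or low rows can show, is unknown.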

Other observations

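Of 25 other long noncoding RNAs tested, none rose and 2 fell with wild-type KDM5A: UCA1, an RNA described in carcinomas, with a log2 difference of -0.44 (limma adjusted p = 0.0200), and HOTAIRM1, transcribed from the HOXA cluster, with -0.69 (limma adjusted p = 0.0363). With mutant KDM5A 4 passed higher and 4 lower. The hosts of small nucleolar RNAs SNHG1 (0.58), GAS5 (0.48) and SNHG6 (0.47) and the RNA DANCR (0.29) were higher, and TUG1 (-0.58), PVT1 (-0.47), UCA1 (-0.46) and LINC00657 (-0.32), the RNA also called NORAD, were lower. As deposited the split with mutant KDM5A was 1 higher and 10 lower, and with quantile normalization 1 and 4. In parental against knockout cells LINC00998 was higher (0.41) and SNHG12 (-0.34) and SNHG15 (-0.38) were lower.

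Of 50 other small nuclear, nucleolar, Cajal body, Y, vault and related short RNAs, 48 are in the tables, 26 of these were at 0 in all libraries and 12 were tested. None passed with wild-type KDM5A or in parental cells. With mutant KDM5A SNORD3C, a gene of the U3 RNA, was higher (1.80 ± 0.0856, SD, n = 3, with empty vector and 4.85 ± 0.0231, SD, n = 2, limma adjusted p = 0.0267), and RNU7-1, the U7 RNA of histone mRNA processing, was lower (4.22 ± 1.21, SD, n = 3, with empty vector and 1.76 ± 0.628, SD, n = 2, limma adjusted p = 0.0293). SNORD3C has near-identical copies, so its value is uncertain. No row of up to 150 bases typed as short structural RNA was above 0, so the signal of RNU7-1 is from a row that is longer or otherwise typed. Its value may therefore not be that of the U7 RNA alone.

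The genes nearest in pattern to RN7SL3 were the class row Metazoa_SRP (root mean square difference 0.45), RP11-6N17.6 (0.67), CH507-513H4.1 (0.67), CH507-528H12.1 (0.68) and RN7SL5P (0.72). Those nearest to RN7SK, RP11-314A20.1 (0.60), RN7SL468P (0.62), HP (0.63), RP11-53I6.1 (0.68) and RP11-755B10.2 (0.77), had means of 1.23 to 4.24. Those nearest to RN7SL2 were CTC-429P9.5 (0.60), RPS26P13 (0.73), AC000041.8 (0.73), RPS26P8 (0.75) and RPL36AP26 (0.76). The epithelial keratin genes KRT8 (0.40), KRT18 (0.36) and KRT19 (0.35) and EPCAM (0.31) passed higher in the same mutant libraries in which 7SL and MALAT1 were high, but as deposited 0 of 7 tested epithelial markers passed higher and 3 passed lower, and with quantile normalization 0 higher and 1 lower.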
